A study of Arabidopsis thaliana with 6 samples.

Results

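Transcripts of 7 nuclear genes for light-harvesting antenna proteins and small photosystem subunits were followed on 6 single-channel Affymetrix arrays from a study of acclimation to light intensity in Arabidopsis thaliana. The genes were chosen by name, with earlier results of these data known, 1 probe set for each, out of 8297 probe sets on the array. Of these, 3 encode antenna proteins of photosystem II: LHB1B2 (AT2G34420), LHCB4.1 (AT5G01530) and LHCB4.3 (AT2G40100). The other 4 encode subunits of the photosystem cores: PSAE-1 (AT4G28750) and PSAN (AT5G64040) of photosystem I, and PSBW (AT2G30570) and PSBY (AT1G67740) of photosystem II. None of these 4 is a reaction centre protein. All 7 probe sets passed the filter on dim probe sets, which left 5773 to be tested.

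Light is collected in the thylakoid membrane by chlorophyll-binding antenna proteins and passed to the reaction centres of photosystems I and II, where electron transport starts. Trimers of the major antenna complex, LHCII, are joined to the photosystem II core through minor antenna proteins, among them the LHCB4 proteins. Leaves adjust the amounts of antenna and core proteins to the light they grow in, and strong light is known for reducing the antenna of photosystem II. Most antenna genes have several close copies, which are not all regulated alike.

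The arrays held total RNA from unshaded rosette leaves of the unmodified accession Ws-2, stock N1601, at growth stage 3.90. Each array has its own code of 3 letters, made of a start, CL or CV, and an ending, L, M or H, and no code was repeated. The labels do not explain the letters, so the arrays are named by code and not by a light level. The growth records give 60% humidity for all 6 arrays. Those of the L arrays alone add M2 compost, a watering interval and a dark period of 16 hours at 15 °C, and this difference in records cannot be told apart from the ending. The labels do not say which arrays came from separate batches of plants. The p-values therefore cover only the spread between single arrays, which may be technical. Comparisons of starts and of endings took as error the departure from effects of start and ending that add up. A change that differed between the starts thus raised the error of these comparisons.

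The deposited values are scaled signals on a linear scale, with medians from 20.0 to 26.1 per array. The signal at the 99th percentile was 3360 in CLL and between 3825 and 4351 on the other 5 arrays. GAPDH signal at the 3-prime end exceeded that at the 5-prime end 6.22 times in CLH, 5.50 times in CVH and between 2.81 and 3.76 times on the L and M arrays, and a higher ratio goes with less intact RNA. The same ratio for ubiquitin, used in place of the planned actin one, did not set the H arrays apart. It was highest in CLH (3.18) and lowest in CVH (2.31), with the L and M arrays between 2.43 and 3.12. Of 5 leaf mesophyll marker genes, 2 had a named probe set, and both were bright: RCA, which encodes Rubisco activase, had signals from 7731 to 10820 and SBPASE, of the Calvin cycle, from 991 to 1480. Both L arrays were the lowest for RCA, whereas SBPASE was lowest at H within both starts. Of 10 marker genes of root hairs, floral organs and seeds, 0 had a named probe set, so RNA of those organs was not assessed.

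LHCB4.3, a form of the minor antenna protein LHCB4 with a shorter C-terminal end, had the widest spread of the 7 genes. Signals at L, M and H were 1103, 515 and 248 in CL and 632, 1316 and 1876 in CV. The order of the endings was thus L, M, H from high to low within CL and the reverse within CV, and the ranges of the 2 starts overlapped. The SD of its log2 signal over the 6 arrays was 1.05, larger than that of 98.3% of the probe sets tested.

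Within CL the LHCB4.3 signal was 2.14 times lower in CLM than in CLL and 4.46 times lower in CLH than in CLL. Within CV it was 2.08 times higher in CVM than in CVL and 2.97 times higher in CVH than in CVL. These are comparisons of single arrays, without a test. CVL was below CLL by a log2 difference of -0.80, whereas CVM was above CLM by 1.35 and CVH above CLH by 2.90, which is 7.58-fold. In whole leaves, fewer cells of a type and less RNA per cell cannot be told apart.

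**Figure D1:**
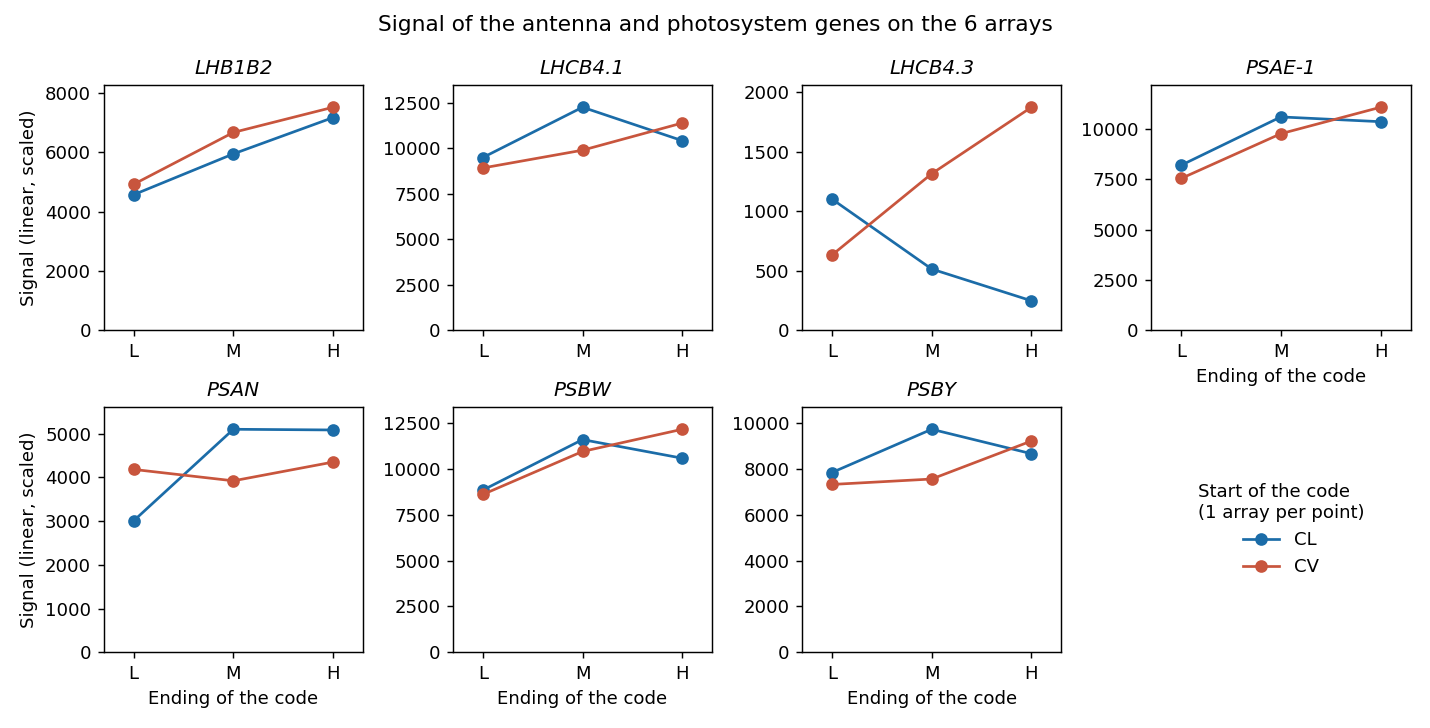
Deposited signal (linear scale, starting at 0; the scales of the panels differ) of the 7 genes against the ending of the code, with 1 array per point and lines joining the 3 arrays of a start. LHCB4.3 runs from 1103 to 248 in CL and from 632 to 1876 in CV, and the L arrays are the 2 lowest for LHB1B2, LHCB4.1, PSAE-1 and PSBW.

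Whether the change from L to H differed between the starts was tested with limma in a fit that set M at the midpoint of L and H within each start. The distances of the M arrays from that midpoint then served as error, with 2 residual degrees of freedom. limma moved this error towards that of probe sets of like brightness, which gave 9.93 degrees of freedom in total. The midpoint is an assumption, since no label explains the letters. For LHCB4.3 the change from L to H was 3.70 higher in CV than in CL on the log2 scale (SE 0.46, 95% confidence interval 2.67 to 4.73, limma adjusted p = 0.014 over all probe sets). Its M arrays lay -0.02 from the midpoint in CL and 0.27 in CV, on the log2 scale. The opposite course of this gene was already known when the test was set, so the p-value is no independent evidence for it.

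LHCB4.3 was 1 of 6 probe sets called in this test, which is 0.104% of those tested, and it was the only one of the 7 genes at an unadjusted p under 0.05, against 8.97% of all probe sets. Of the other 5, only CSLA01, which encodes a cellulose synthase-like protein, had a gene name. The 3 settings that ended the LHCB4.3 call were arrays scaled to a common median (difference 3.39, adjusted p = 0.113), no filter on dim probe sets (3.70, adjusted p = 0.057) and no intensity trend (3.70, adjusted p = 0.368). The call was also lost without CLL, CVL or CVH, with differences of 3.65, 3.16 and 4.25 and adjusted p of 0.226, 0.324 and 0.194. It was kept without each of the other 3 arrays. Where an L or H array was left out, the fit extrapolated the change of that start from its remaining arrays. Leaving out an M array could not alter the size of the difference.

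The size of the LHCB4.3 difference was 3.77 after quantile normalization and 3.39 with a common median. Taken relative to the median of the other 6 genes on the same array, the log2 change of LHCB4.3 from L to H was -2.38 in CL and 1.12 in CV, a difference of 3.50. Its place in the order of all signals on the array, where 1 is the brightest, went from 257 at L to 532 at M and 978 at H in CL. In CV it moved the other way, with places 449, 253 and 178 at L, M and H. An order of L above M above H in CL and the reverse in CV was seen in 4.80% of the probe sets tested. The place on an array also depends on the probes, so it is compared here only between arrays.

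Opposite changes from L to H in the 2 starts, each of at least 1 on the log2 scale, were found for 98 probe sets, or 1.70% of those tested. LHCB4.3 was the only one of the 7 genes among them. In 56 probe sets (0.970%) the direction was that of LHCB4.3, lower in CL and higher in CV.

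LHB1B2 encodes a protein of the LHCB1 type, the main component of the LHCII trimers, and its course differed from that of LHCB4.3. The CL arrays gave 4573 at L, 5952 at M and 7178 at H, and the CV arrays 4925, 6676 and 7526 for the same endings. On this probe set it was lowest on the L arrays and highest on the H arrays within both starts, with no overlap between any of the endings. Of all probe sets tested, 6.93% had both M arrays above both L arrays, 16.6% H above L and 17.0% H above M. The second LHB1B2 probe set, given below, did not share this order, its lowest array being CVM. From L to H the signal of the first was 1.57 times higher within CL and 1.53 times higher within CV, and its place in the order of signals went from 62 to 43 and from 58 to 38.

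LHCB4.1 encodes another form of LHCB4. CL arrays had signals of 9478 (L), 12241 (M) and 10405 (H), and CV arrays 8905, 9882 and 11374. The L arrays were the lowest within each start, while the highest was M in CL and H in CV. Its highest signal was 1.37 times its lowest, against 7.58 times for LHCB4.3.

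The difference between the starts in the change from L to H was 0.22 for LHCB4.1 (95% confidence interval -0.55 to 0.99, limma adjusted p = 0.9) and -0.04 for LHB1B2 (-0.80 to 0.72, adjusted p = 0.986). Both intervals lie below that of LHCB4.3, which starts at 2.67. The difference between genes was not itself tested.

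PSAE-1 encodes a subunit on the stromal side of photosystem I, where ferredoxin docks. Signals at L, M and H were 8206, 10610 and 10373 in CL and 7548, 9775 and 11092 in CV. Both L arrays were below all others, with M and H close to each other in CL and in the order M, H in CV.

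PSAN encodes a subunit on the lumenal side of photosystem I, which takes part in the reaction with plastocyanin. The CL arrays gave 3007 at L, 5101 at M and 5085 at H, and the CV arrays 4182, 3921 and 4351 for the same endings. The 3 CV arrays lay close together and between CLL and the other CL arrays, so that only CL showed a step from L. On the log2 scale PSAN in CLM and in CLH was higher than in CLL by 0.76 each, whereas the corresponding changes in CV were -0.09 and 0.06. The difference between the starts in the change from L to H was -0.70 (SE 0.41, 95% confidence interval -1.61 to 0.21, limma adjusted p = 0.653). Without CLL the difference was 0.07, but that fit extrapolated the change in CL from CLM and CLH alone. The step from CLL was therefore absent from it by construction.

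PSBW encodes a small membrane protein that stabilises the assemblies of photosystem II with LHCII. CL arrays had signals of 8855 (L), 11616 (M) and 10599 (H), and CV arrays 8618, 10968 and 12181. It followed the pattern of PSAE-1, with both L arrays below all others.

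PSBY encodes a precursor that is cut into small membrane proteins of photosystem II. Signals at L, M and H were 7853, 9743 and 8675 in CL and 7331, 7568 and 9230 in CV. CVM was below CLL, so that the M and L arrays overlapped, whereas both H arrays were above both L arrays.

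Differences of H from L that both starts share were estimated in the additive fit. Fitted log2 changes were above 0 for all of these genes but LHCB4.3, from 0.24 in PSBY to 0.63 in LHB1B2, with a median of 0.38 over the 7 against -0.01 over all probe sets tested. H was above L within each start for 6 of the 7, against 25.7% of all probe sets, and both H arrays were above both L arrays for the same 6, against 16.6%. Since the genes were chosen with earlier results of these data known, counts set against all probe sets, here and below, are descriptions only. The fitted change was 0.63 for LHB1B2 (SE 0.19, adjusted p = 0.752) and 0.45 for PSAE-1 (SE 0.18, adjusted p = 0.794), in limma over 2 arrays against 2. For LHCB4.3 it was -0.29 (SE 0.69), the mean of opposite changes in the starts.

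Several of these changes leaned on single arrays. PSAN had 0.02 without CLL and 0.80 without CVL. LHCB4.1 had 0.08 without CVH and 0.41 without CLH, and for PSBY the same omissions gave 0.08 and 0.40. PSBW ranged from 0.25 to 0.51 over the 6 omissions, PSAE-1 from 0.34 to 0.55 and LHB1B2 from 0.60 to 0.66, so that each of the 6 genes stayed above 0. Of the mesophyll markers, RCA had a fitted change from L to H of 0.34 (SE 0.18, adjusted p = 0.863), within the range of these genes, and SBPASE one of -0.31 (SE 0.24, adjusted p = 0.913).

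The limma test of H against L called 0 of the 7, as it called 0% of all probe sets. At an unadjusted p under 0.05 there were 2 of the 7, LHB1B2 and PSAE-1, against 6.05% of all probe sets. Without CVL, LHCB4.3 was called lower at H (-1.75, adjusted p = 0.011), in a fit with 1 residual degree of freedom that called 54 of all probe sets. The sign turned without CLL (1.17, adjusted p = 0.237) and without CLH (1.03, adjusted p = 0.614). The GAPDH ratio, unlike that of ubiquitin, was highest on both H arrays, and its part in the differences of H from L was not tested.

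**Figure D2:**
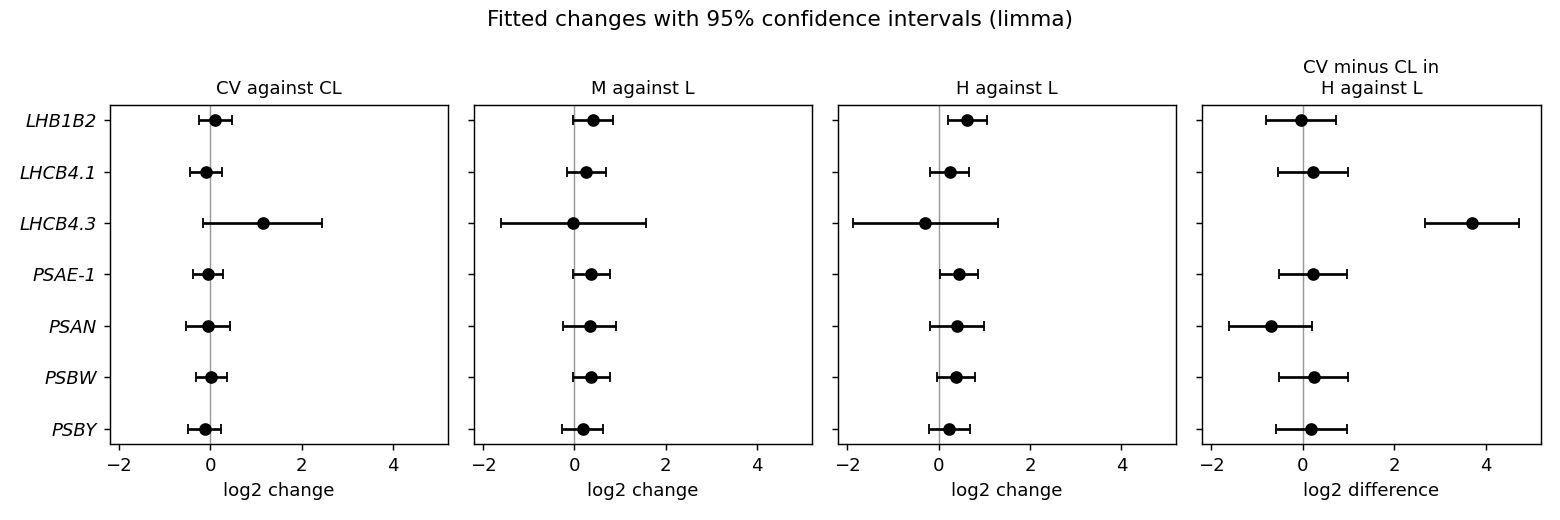
Fitted log2 changes (points) with 95% confidence intervals (bars) from limma for the 7 genes in CV against CL, M against L and H against L, and the difference between the starts in H against L (right panel, log2). Only the difference of LHCB4.3, at 3.70, passed the adjusted test, and the 6 other genes lie between 0.24 and 0.63 in H against L.

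The changes from L in the bright genes depended on how the arrays were scaled. After quantile normalization, which gives all arrays the same distribution of signals, both H arrays were above both L arrays for 1 of the 7 genes, LHB1B2, against 16.7% of all probe sets. The fitted change from L to H then was 0.37 for LHB1B2, 0.21 for PSAN and 0.03 for PSBW, and it turned to -0.01 for PSAE-1, -0.16 for PSBY and -0.20 for LHCB4.1. With the arrays scaled to a common median the count was 5 of 7, PSAN being lost, against 15.7% of all probe sets. LHCB4.3 stayed below 0 under each of these scalings, at -0.35 and -0.32.

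**Figure D3:**
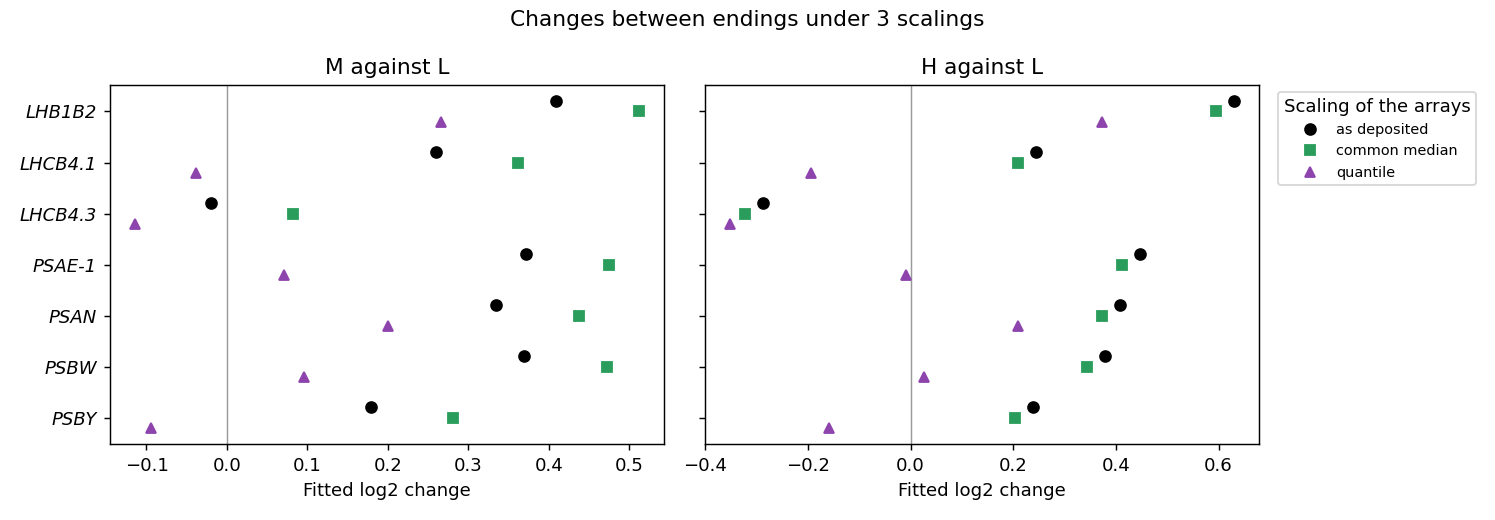
Fitted log2 change from L to M (left) and from L to H (right) of the 7 genes with the arrays as deposited (circles), scaled to a common median (squares) and quantile normalized (triangles). Quantile values are lower than the deposited ones for every gene, and in H against L only LHB1B2, PSAN and PSBW stay above 0.

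The order of signals within an array, which none of these scalings alters, did not move alike in all genes. LHB1B2 was nearer the top at H than at L in both starts. LHCB4.1 was further from it, going from 5 to 21 in CL and from 7 to 12 in CV. PSBY went from 23 to 33 in CL and from 21 to 25 in CV. PSBW moved in opposite directions, from 14 to 20 in CL and from 10 to 4 in CV, and so did PSAE-1, from 18 to 22 in CL and from 18 to 15 in CV. PSAN went from 101 to 64 in CL and from 76 to 84 in CV.

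**Figure D4:**
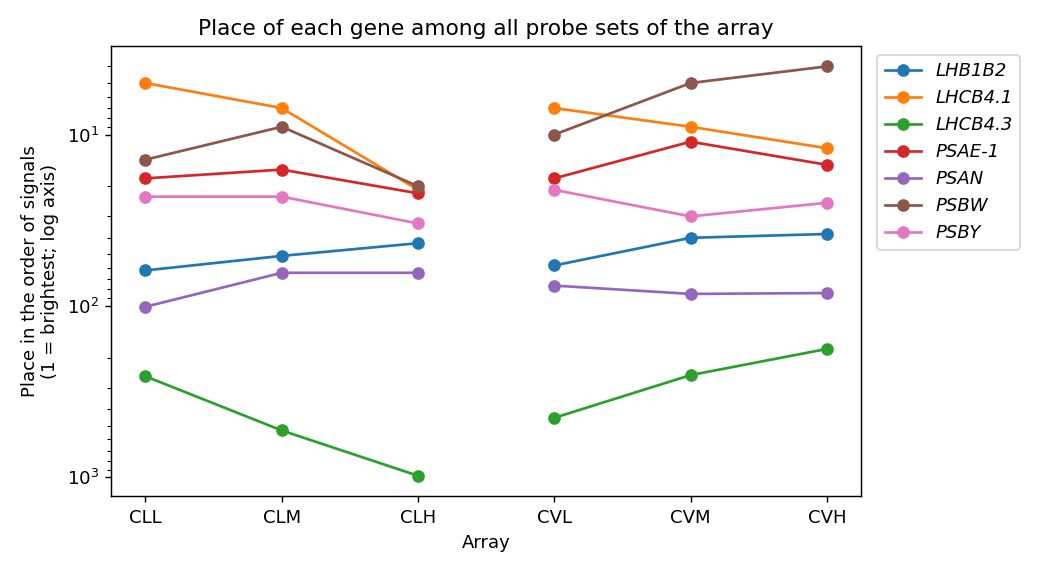
Place of each of the 7 genes in the order of all signals on each array (log axis, 1 is the brightest, top of the plot), with lines joining the 3 arrays of a start. The other 6 genes stay among the 101 brightest probe sets on every array, while LHCB4.3 goes from 257 to 978 in CL and from 449 to 178 in CV.

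M was compared with L in the same fit. Fitted log2 changes were between 0.18 (PSBY) and 0.41 (LHB1B2, SE 0.19) for 6 of the 7 genes and -0.02 (SE 0.69) for LHCB4.3. With 1 array left out, LHCB4.1 ranged from 0.10 (without CLM) to 0.42 (without CVM), PSBY from -0.0013 to 0.36 on the same omissions, and PSAN from -0.05 (without CLL) to 0.72 (without CVL). The median over the 7 was 0.33, against -0.05 over all probe sets tested. Both M arrays were above both L arrays for 4 of the 7 (LHB1B2, LHCB4.1, PSAE-1 and PSBW), against 6.93% of all probe sets. The further probe sets of LHB1B2 and PSAE-1, given below, did not show this separation. After quantile normalization LHB1B2, PSAE-1 and PSBW were left of the 4, against 9.54% of all probe sets, and the changes of LHCB4.1 and PSBY turned to -0.04 and -0.09. Scaled to a common median, the change of LHCB4.3 turned to 0.08 and the count was 6 of 7, against 12.1% of all probe sets. The limma test called 0 of the 7 (each adjusted p = 0.999) and 0% of all probe sets, and at an unadjusted p under 0.05 there were 0 of the 7 against 1.28%.

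H was also compared with M. Apart from LHCB4.3, fitted changes from M to H lay between -0.02 and 0.22, with SEs from 0.18 to 0.26 and adjusted p from 0.994 to 0.999 in limma. The test called 0 of the 7 and 0% of all probe sets, and at an unadjusted p under 0.05 there were 0 of the 7 against 4.43%. H was above M within each start for 1 of the 7, LHB1B2, against 27.5% of all probe sets, and both its H arrays were above both its M arrays, against 17.0%. On the second LHB1B2 probe set CVH (280) was below CLM (287).

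CV and CL were compared over all 3 endings. LHCB4.3 averaged higher in CV, with a fitted log2 change of 1.15 (SE 0.57, 95% confidence interval -0.15 to 2.45, limma adjusted p = 0.438, 3 arrays against 3), and was higher there at M and H but not at L. Without CLL or without CVL its change was 2.13 and was called, with adjusted p of 9.96e-07 and 5.56e-07, but these fits with 1 residual degree of freedom called 251 and 257 of all probe sets, against 2 with all arrays. Without CLH or without CVH the change was 0.27. For the other 6 genes the change lay between -0.12 and 0.11, with SEs from 0.15 to 0.21 and adjusted p from 0.784 to 0.966. The widest of their 95% confidence intervals, that of PSAN, ran from -0.52 to 0.44. Of the 7, 0 were called, against 0.0346% of all probe sets, and at an unadjusted p under 0.05 there were 0 against 13.0%. For 0 of the 7 were all CV arrays above all CL arrays (7.36% of all probe sets) or all CL arrays above all CV arrays (12.2%).

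Apart from LHCB4.3 and PSAN, the difference between the starts in the change from L to H lay between -0.04 and 0.24 on the log2 scale, against a median of 0.19 over all probe sets tested. The array scale moved these values: with a common median the differences of LHCB4.1, PSAE-1, PSBW and PSBY were -0.09, -0.09, -0.07 and -0.12, and the median of all probe sets was -0.09.

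For 3 of the genes there were further probe sets, which agreed on the direction from L to H within both starts but not on its size. The second LHB1B2 probe set had signals of 265, 287 and 325 in CLL, CLM and CLH and of 267, 243 and 280 in CVL, CVM and CVH. Its fitted change from L to H was 0.18 (SE 0.28), against 0.63 for the brighter one. From L to M it was -0.0087, against 0.41, and CVM was below CVL. The further probe sets of PSAE-1 had changes from L to H of 0.41 and 0.28, and that of PSBW had 0.34. From L to M these were 0.14, 0.21 and 0.26, and the dimmer PSAE-1 one had 1464 in CVL and 1463 in CVM. In both of the further PSAE-1 probe sets the change from L to H was larger in CL (0.54 and 0.45) than in CV (0.27 and 0.12), the reverse of the probe set described above. The further PSBW probe set was also the reverse, with 0.37 in CL and 0.31 in CV against 0.26 and 0.50. The suffix s in a probe set name marks probe sets whose probes can match several genes or transcripts, and the names of those used for LHB1B2, LHCB4.3, PSAE-1 and PSBY carry it, so close copies of these genes could contribute to their signals.

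Of 67 genes listed for antenna proteins, photosystem subunits, electron transfer, ATP synthase, light stress and antenna kinases, 10 had a named probe set, the 7 described and 3 others. None of the 3 passed the limma test in any of the 5 comparisons (0 of 3 higher, 0 of 3 lower). PSB27, which encodes an assembly factor of photosystem II, had signals of 2187, 2897 and 1924 in CL and 3248, 3632 and 2901 in CV. All 3 CV arrays were above all 3 CL arrays, as in 7.36% of all probe sets, though CVH (2901) was barely above CLM (2897). This separation was not checked under other scalings of the arrays. Its fitted change in CV against CL was 0.50 (SE 0.18, adjusted p = 0.313). From L to H it was -0.17 (SE 0.22, adjusted p = 0.931), on the other side of 0 from the 6 bright genes.

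AT2G26500, known to encode a small subunit of the cytochrome b6f complex, had signals between 2843 and 3529, and its fitted changes lay between -0.11 and 0.07 in the 4 comparisons of starts and endings. LIL3:1, a light-harvesting-like protein of chlorophyll synthesis, gave 725 at L, 777 at M and 501 at H in CL and 948, 946 and 806 in CV, with a fitted change of 0.45 in CV against CL (SE 0.22, adjusted p = 0.429) and of -0.38 from L to H (SE 0.27, adjusted p = 0.894). Within both starts LIL3:1 was lowest at H.

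Among 2525 other tested probe sets with 1 gene, those most like LHCB4.3 over the 6 arrays were AT2G37240 (Pearson r = 0.992), AT4G08280 (r = 0.983) and the acyl-carrier-protein thioesterase gene FaTA (r = 0.982). These are descriptions over 6 arrays, chosen as the highest of many, from values that share array and scaling. AT2G37240 had signals of 164, 112 and 73.7 in CL and 131, 173 and 199 in CV, so its range was narrower than that of LHCB4.3. AT4G08280 had 46.0, 32.5 and 28.7 in CL and 37.5, 47.1 and 50.7 in CV. FaTA had 14.9, 6.90 and 2.20 in CL, the last below the offset of 3.9 added before taking logs, and 6.30, 22.6 and 26.9 in CV.

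**Figure D5:**
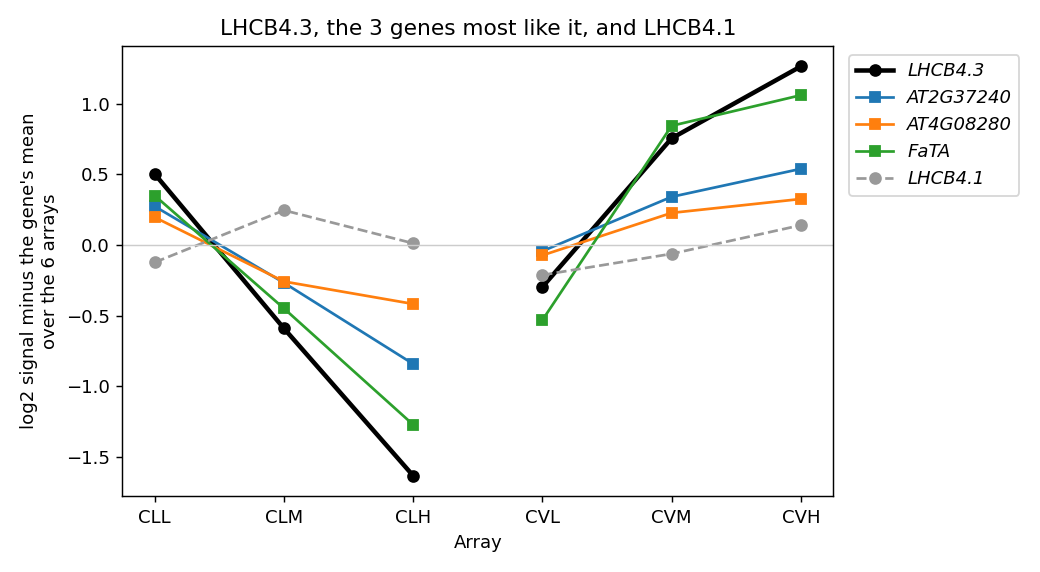
Log2 signal (offset 3.9 added) minus the gene's mean over the 6 arrays for LHCB4.3, the 3 genes most like it (AT2G37240, AT4G08280 and FaTA) and LHCB4.1, with lines joining the 3 arrays of a start. The first 4 go down from L to H in CL and up in CV, and LHCB4.1 does not.

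For the other genes, the one most like LHB1B2 was AT3G16310 (r = 0.986), the one most like PSAE-1 was AT2G35540 (r = 0.983), the one most like PSAN was AT2G18245 (r = 0.971) and the one most like PSBW was AT2G24130 (r = 0.986). The serine carboxypeptidase-like gene scpl36 came first for both LHCB4.1 (r = 0.964) and PSBY (r = 0.998). The signals of these 5 genes were at most 47.5 on any array. Those of AT2G35540 in CLL and CVL, AT2G18245 in CLL and AT2G24130 in CVL were below the offset of 3.9.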

How the data were processed

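Per the labels, biotin-labelled cRNA from total RNA was hybridised to single-channel arrays. The deposited intensity values are linear, and their mean without the top and bottom 2% was 100.2 on each array, so a common scale had been set. The sources used here do not name the software. Precision is limited by the number of arrays. Samples were grouped by the code in the source name. Values were analysed as log2(value + 3.9), the offset being the 20th percentile of all values. The 50 control probe sets and the 30% of the others with the lowest means (2474) were left out. Additive models of start and ending, and a model of the difference between starts with M at the midpoint of L and H, were fitted with limma (version 3.58.1, R 4.3.3; lmFit, eBayes with an intensity trend, Benjamini-Hochberg adjustment over 5773 probe sets, threshold 0.05). The fits were run on simulated data made to meet their assumptions, so those assumptions were not checked. Names came from the platform annotation, matched by gene identifier to the TAIR10.1 table: 3794 had 1 gene, 70 several and 4433 none. The members, gene lists and tests were chosen with earlier results of these data known. The genes named were the 7 members, the listed genes with a probe set (the brightest where there were several), and the 3 genes with the highest Pearson correlation with each member. Alternatives were offsets of 1 and 16, quantile and median scaling, no filter, no trend, no block and each array left out. The places in the order of signals and the values relative to the other 6 genes were chosen after seeing the data.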

Additional observations from a re-analysis of the deposited data

Results flagged for a closer look

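The change of LHCB4.3 from L to H differed between the starts in a test of that difference (3.70 on the log2 scale, CV minus CL). Its single-array log2 changes had opposite signs in CL and CV at M relative to L (-1.09 and 1.05), at H relative to L (-2.14 and 1.56) and at H relative to M (-1.04 and 0.51). PSAN differed in sign from L to M (0.76 in CL, -0.093 in CV) and from M to H (-0.0045 and 0.15). From M to H the sign also differed for LHCB4.1 (-0.23 in CL, 0.20 in CV), PSAE-1 (-0.033 and 0.18), PSBW (-0.13 and 0.15) and PSBY (-0.17 and 0.29), and the median of all probe sets from M to H was -0.05 in CL and 0.16 in CV. Apart from the first, none of these differences was tested, and each rests on 1 array per code.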

How the results depend on the processing

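The endings were compared within starts, and the starts within endings, by fitting the other as a block; leaving the block out changed no call of the 7 genes, and the SE of LHB1B2 from L to H was 0.21 without it and 0.19 with it. Pairing by replicate number could not be fitted, since the labels give none that codes share. The difference of LHCB4.3 between the starts kept its sign under every alternative run; it was not called with a common median (3.39), without the filter (3.70), without the trend (3.70), or without CLL, CVL or CVH, the count of the 7 genes called then being 0. It ranged from 3.16 to 4.25 with 1 array left out, and was 3.50 relative to the other 6 genes. Without an L or H array the fit extrapolated the change of that start from its remaining arrays. Without an M array the size of the difference could not move, so the range is no measure of its stability. With 1 array left out, which leaves 1 residual degree of freedom, between 0 and 1 of the 7 were called in CV against CL, in H against L and for the difference. Quantile normalization reversed LHCB4.1, PSAE-1 and PSBY from L to H (-0.20, -0.0099 and -0.16), LHCB4.1 and PSBY from L to M (-0.039 and -0.094) and the difference of LHB1B2 (0.042). A common median reversed LHCB4.3 from L to M (0.082) and the differences of LHCB4.1 (-0.094), PSAE-1 (-0.095), PSBW (-0.072) and PSBY (-0.12). With 1 array left out, changes from L to M ranged from -1.48 to 1.44 for LHCB4.3, -0.054 to 0.72 for PSAN and -0.0013 to 0.36 for PSBY, and from L to H from -1.75 to 1.17 for LHCB4.3. The differences, with the same extrapolation, ranged from -0.30 to 0.23 for LHB1B2, -0.38 to 0.82 for LHCB4.1 and -0.19 to 0.62 for PSAE-1. For PSAN the range was -1.47 to 0.066, for PSBW -0.28 to 0.76 and for PSBY -0.29 to 0.67. Over all probe sets the difference was called for 6, against 9 with an offset of 16, 4 after quantile normalization, 3 with a common median, 1 without the filter, 0 without the trend and between 0 and 53 with 1 array left out. In CV against CL it was 2, against 0 with a common median, no trend or no block and between 1 and 257 with 1 array left out. The counts of 0 went to at most 64 for H against L, 38 for M against L and 10 for H against M with 1 array left out. The causes were not tested.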
